A study of Mus musculus with 60 samples.

Results

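Wfs1, Fibcd1, Mpped1, Man1a and Pou3f1 are 5 genes used as markers of the pyramidal neurons of hippocampal field CA1. They were taken by name from a table of 24508 gene symbols, and all 5 were found there. The table holds messenger RNA levels from the hippocampus of 30-week-old mice in 18 libraries, 9 from wild-type (WT) mice and 9 from R6/1 mice. Both genotypes share the mixed CBA x C57BL/6 background. R6/1 is a single transgenic line that models Huntington's disease. Its transgene is a fragment of human huntingtin holding the first exon, with an expanded CAG repeat, driven by the human huntingtin promoter, so it is not limited to CA1 or to neurons. The labels call the libraries independent biological replicates and give no sex. The same series mapped lamin B1 on chromatin of both genotypes, with 1 list of lamin B1 domains per genotype made from 3 replicates of 5 pooled hippocampi each.

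All 5 genes were lower in R6/1, as were 23.5% of the 14446 tested genes by limma at an adjusted p under 0.05. Wfs1 fell most, to 28.4% of its WT mean. Pou3f1, Fibcd1, Mpped1 and Man1a fell to between 71.1% and 82.8% of theirs. Wfs1 was the only member whose R6/1 libraries all lay below all WT libraries, which held for 6.38% of tested genes. The fall of Wfs1 was larger than that of each other member in the same RNA. Set against the mean of 6 genes of excitatory neurons, Wfs1 fell further than that mean and the 4 others fell less. Of these 4, Man1a alone kept the difference against Slc17a7 by itself.

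CA1 is the output field of the hippocampal circuit: its pyramidal cells receive the Schaffer collaterals of CA3 and project to the subiculum and cortex. They are glutamatergic, like the granule cells of the dentate gyrus and the pyramidal cells of CA3, and are told apart from them by a small set of transcripts. Wfs1 encodes wolframin, a membrane glycoprotein of the endoplasmic reticulum with a part in calcium balance and the unfolded protein response, and its loss causes Wolfram syndrome. Man1a encodes a Golgi mannosidase that trims the mannose residues of maturing N-glycans. Fibcd1 encodes a membrane receptor with a fibrinogen-like domain that binds acetylated groups. Mpped1 encodes a metallophosphoesterase domain protein of the brain. Pou3f1, also called Oct6, is a POU-domain transcription factor that binds the octamer motif. None of the 5 is restricted to CA1: Wfs1, Mpped1 and Pou3f1 are also known from layers of the neocortex.

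The sequences just before the starts of 3 members are printed because these genes span the range of change, from Wfs1 to Man1a. They come from RefSeq's promoter windows of mouse build GRCm38.p6, 250 bases before and 50 after each start, which hold 1 window for Wfs1, Fibcd1 and Man1a and 2 for Mpped1. Each window matched the NCBIM37 genome once, and NCBIM37 positions are given. Capitals mark the GC box (GGGCGG or, on the other strand, CCGCCC) and the CCAAT box (CCAAT or ATTGG).
Wfs1, chr5:37380222-37380471, minus strand: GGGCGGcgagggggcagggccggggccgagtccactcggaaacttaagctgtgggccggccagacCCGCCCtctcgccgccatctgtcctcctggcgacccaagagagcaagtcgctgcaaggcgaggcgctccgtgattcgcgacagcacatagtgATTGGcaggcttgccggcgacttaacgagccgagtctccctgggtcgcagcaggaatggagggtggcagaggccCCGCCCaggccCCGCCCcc
Fibcd1, chr2:31701526-31701775, minus strand: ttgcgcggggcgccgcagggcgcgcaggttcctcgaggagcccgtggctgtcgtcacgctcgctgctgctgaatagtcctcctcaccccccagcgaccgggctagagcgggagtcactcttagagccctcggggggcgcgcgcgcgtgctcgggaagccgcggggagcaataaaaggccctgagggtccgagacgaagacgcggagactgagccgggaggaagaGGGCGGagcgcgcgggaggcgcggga
Man1a, chr10:53795603-53795793, minus strand, without the bases that GENCODE places inside the gene: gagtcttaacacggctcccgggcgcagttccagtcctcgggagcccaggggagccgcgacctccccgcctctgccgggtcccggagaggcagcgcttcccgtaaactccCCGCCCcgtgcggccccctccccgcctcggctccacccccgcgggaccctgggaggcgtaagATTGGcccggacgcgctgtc

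The printed stretch of Wfs1 held 4 GC boxes and 1 CCAAT box, that of Fibcd1 held 1 GC box and no CCAAT box, and that of Man1a held 1 of each. Over the whole 300-base windows, G and C made up 70.0% for Wfs1, 74.3% for Fibcd1, 72.7% for Man1a, and 89.3% and 47.3% for the first and the second Mpped1 start, against a median of 52.7% over 32851 windows. A GC box was in 35.7% of all windows and a CCAAT box in 37.4%. The E box CAGCTG, in 16.3% of all windows, was in no window of these members. The same held for the octamer ATGCAAAT (1.74% of all windows), the cAMP response element TGACGTCA (1.79%) and TATAAA (13.6%), each read on both strands. These are matches of letters and not measured binding.

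Each library held between 12299434 and 16736544 reads on genes, and each member had at least 493 reads in every library. Levels are RPKM, reads per kilobase of gene scaled for library depth by the authors, so they can be compared between genes as well as between libraries. Differences are on the scale of log2(RPKM + 0.5), R6/1 minus WT, with limma's standard error (SE) and its p-value adjusted over 14446 tested genes. At an adjusted p under 0.05, 48.3% of tested genes differed between the genotypes, 23.5% lower and 24.8% higher in R6/1, so a call by itself was common in this comparison. In 6.38% of tested genes all R6/1 libraries lay below all WT libraries, and in 5.5% they all lay above. Libraries differed in markers of adjoining tissue: the summed level of 5 choroid plexus genes ran from 25.3 to 1070 RPKM in WT and from 38.0 to 1737 RPKM in R6/1, and that of 3 subiculum genes from 11.9 to 31.7 and from 22.2 to 28.6 RPKM. None of these marker genes was at 0 in any library.

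Wfs1 (ENSMUSG00000039474, NCBIM37 chromosome 5, 37357343 to 37380221, minus strand, up to 8 exons) had a lowest, median and highest level of 32.4, 46.1 and 62.5 RPKM in WT. In R6/1 these were 12.1, 13.8 and 14.7 RPKM. The lowest WT library, replicate 1, still had more than double the level of the highest R6/1 library, replicate 2. The mean went from 47.8 ± 9.90 to 13.6 ± 0.736 RPKM (SD, n = 9 each), a WT mean 3.53 times that of R6/1. On the log2 scale Wfs1 fell by 1.76 (SE 0.095, limma adjusted p = 1.82e-11). Of the 14446 tested genes, 14 had a log2 difference at or below that of Wfs1, itself included. In RNA of whole tissue, fewer CA1 cells and less Wfs1 RNA per cell cannot be told apart, and the same holds for each gene below.

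Man1a (ENSMUSG00000003746, chromosome 10, 53624594 to 53795602, minus strand, up to 13 exons) had a lowest, median and highest level of 12.6, 15.3 and 17.2 RPKM in WT. The R6/1 libraries had 11.2, 12.4 and 15.3 RPKM. The groups overlapped: 4 WT libraries were at or below the highest R6/1 library, replicate 4, which stood apart from the other 8 R6/1 libraries at up to 13.1 RPKM. The mean went from 15.1 ± 1.63 to 12.5 ± 1.21 RPKM (SD, n = 9 each), the smallest fall of the 5, by 0.26 on the log2 scale (SE 0.064, limma adjusted p = 0.00203).

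Fibcd1 (ENSMUSG00000026841, chromosome 2, 31668810 to 31701525, minus strand, 7 exons) ran from 26.3 to 43.5 RPKM in WT with a median of 33.3 RPKM. In R6/1 it ran from 20.1 to 33.2 RPKM with a median of 25.2 RPKM. Here 4 WT libraries were at or below the highest R6/1 library and 3 R6/1 libraries at or above the lowest WT library, replicate 2. The mean went from 34.5 ± 4.87 to 25.8 ± 4.67 RPKM (SD, n = 9 each), a fall by 0.42 on the log2 scale (SE 0.098, limma adjusted p = 0.00152). With the mean log2 level of the subiculum list as a covariate, an alternative chosen after seeing the data, the fall was 0.26 (limma adjusted p = 0.0176). The other members fell by more with this covariate than without it. Their log2 differences were -1.87 for Wfs1, -0.39 for Mpped1, -0.28 for Man1a and -0.53 for Pou3f1. The list holds Nts, which was itself higher in R6/1. The part of the list in the Fibcd1 difference was not otherwise tested.

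Mpped1 (ENSMUSG00000041708, chromosome 15, 83609897 to 83688924, plus strand, 11 annotated transcripts) was the most abundant member. Its lowest, median and highest levels were 60.7, 77.0 and 94.6 RPKM in WT and 56.5, 61.4 and 66.4 RPKM in R6/1. The WT libraries spread widely and 2 of them, replicates 5 and 6, sat within the R6/1 range. The mean went from 78.7 ± 13.8 to 61.3 ± 3.38 RPKM (SD, n = 9 each), a fall by 0.34 on the log2 scale (SE 0.082, limma adjusted p = 0.00187).

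Pou3f1 (ENSMUSG00000078236, chromosome 4, 124334896 to 124337899, plus strand, 1 exon) had 12.9, 17.6 and 20.6 RPKM as its lowest, median and highest level in WT. In R6/1 these were 10.97, 11.7 and 13.5 RPKM. WT replicates 1 and 5 lay within the R6/1 range, and the other 7 WT libraries lay above it. The mean went from 16.9 ± 2.77 to 12 ± 0.841 RPKM (SD, n = 9 each), a fall by 0.46 on the log2 scale (SE 0.080, limma adjusted p = 8.10e-05). GENCODE lists a pseudogene entry of the same name on the same strand over this locus, and how the authors' counting treated it is not given in the sources used here.

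**Figure D1:**
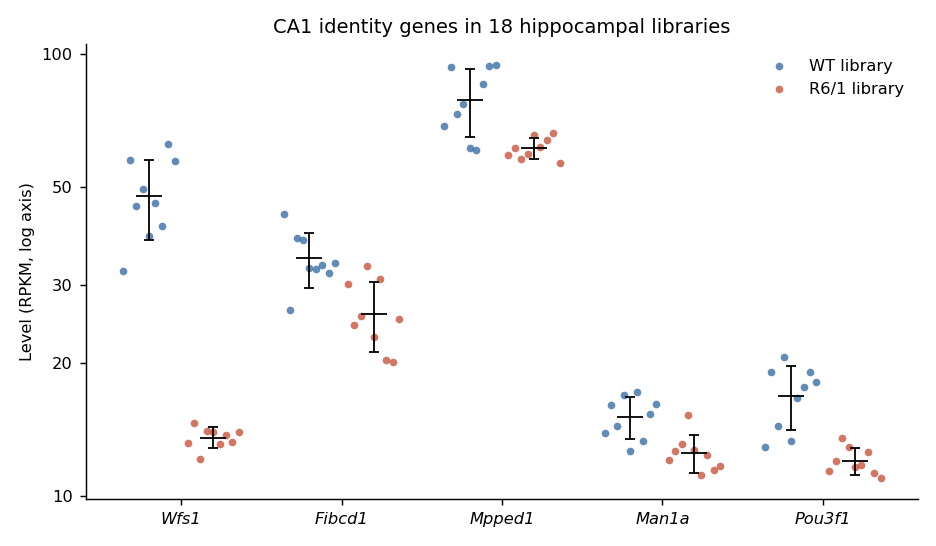
Level of each member in RPKM (log axis) in the 9 WT and 9 R6/1 libraries. Each point is a library and the bars are the mean ± SD. The Wfs1 groups are apart, at 32.4 RPKM and above in WT and 14.7 RPKM and below in R6/1, while the groups of the 4 other genes overlap.

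The order of the members differed between the genotypes. In WT it was Mpped1, Wfs1, Fibcd1, Pou3f1 and Man1a. Mpped1 was above Wfs1 in 9 of 9 WT libraries and Wfs1 above Fibcd1 in 8 of 9, with overlapping ranges. Fibcd1 and Pou3f1 did not overlap, and Pou3f1 exceeded Man1a in 6 of 9. In R6/1, Wfs1 dropped behind Fibcd1 in 9 of 9 libraries with no overlap of their ranges. Wfs1 then stood beside Man1a, which it exceeded in 7 of 9, and Man1a exceeded Pou3f1 in 6 of 9.

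R6/1 libraries were also more alike for some members. The coefficient of variation of Wfs1 was 20.7% in WT and 5.43% in R6/1, that of Mpped1 17.5% and 5.51%, and that of Pou3f1 16.4% and 7.01%. Man1a differed little, with 10.8% and 9.69%, and Fibcd1 went the other way, with 14.1% and 18.0%. Over all tested genes the medians were 10.3% and 9.71%, and 56.4% of genes had the smaller coefficient in R6/1. A ratio of WT to R6/1 coefficients at least that of Wfs1, 3.81, was reached by 0.256% of tested genes. These spreads are given without a test.

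Whether the members fell by different amounts was tested on their ratios within a library, which do not depend on how libraries are scaled, by a two-sided exact permutation test over every way to choose 9 of the 18 libraries, with adjustment over the 10 pairs. Wfs1 fell more than each of the others. The R6/1 minus WT difference in the log2 ratio was -1.30 for Wfs1 to Pou3f1, -1.34 for Wfs1 to Fibcd1, -1.42 for Wfs1 to Mpped1 and -1.49 for Wfs1 to Man1a, each with an adjusted p = 0.000103 in the exact permutation test. Each raw p was 4.11e-05, the smallest this design can give. WT libraries had a log2 ratio of Wfs1 to Pou3f1 of 1.47 ± 0.184, and R6/1 libraries one of 0.17 ± 0.140 (SD, n = 9 each).

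Among the 4 other members, Man1a fell less than Pou3f1. Their log2 ratio went from -0.14 ± 0.175 to 0.05 ± 0.094, a difference of 0.20 (95% interval 0.059 to 0.340, exact permutation adjusted p = 0.0188). The 5 remaining pairs had adjusted p-values between 0.258 and 0.783 by the same exact permutation test. Their 95% intervals leave room for differences in either direction: Fibcd1 against Mpped1 had a difference between -0.43 and 0.27, Fibcd1 against Pou3f1 between -0.28 and 0.37, and Mpped1 against Man1a between -0.30 and 0.14.

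A list of 6 genes used as markers of excitatory neurons gives a scale for these falls. The list holds Slc17a7, the vesicular glutamate transporter, Camk2a and Nrgn of the postsynaptic calcium signal, and the transcription factors Neurod2, Neurod6 and Tbr1. Its mean log2 level fell by 0.71, from 7.41 ± 0.090 to 6.70 ± 0.053 (SD, n = 9 each). The median log2 difference of its genes was smaller, at -0.47. Neurod6 had -1.59, Camk2a -1.18, Nrgn -0.49, Slc17a7 -0.46, Neurod2 -0.37 and Tbr1 -0.18. Of its 6 genes, 5 fell, among them Camk2a from 1057 to 467 RPKM and Neurod6 from 88.7 to 29.1 RPKM. Tbr1 did not pass, with 17.2 and 14.8 RPKM (limma adjusted p = 0.161).

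Relative to the mean of that list in the same library, Wfs1 fell by a further 1.05 (95% interval -1.28 to -0.81). The others rose relative to it: Man1a by 0.45 (0.315 to 0.583), Mpped1 by 0.37 (0.177 to 0.564), Fibcd1 by 0.29 (0.087 to 0.498) and Pou3f1 by 0.25 (0.069 to 0.431). By the two-sided exact permutation test, adjusted over the 5 members, p was 0.000103 for Wfs1 and Man1a, 0.00192 for Mpped1, 0.0079 for Fibcd1 and 0.00524 for Pou3f1. For Fibcd1, Mpped1 and Pou3f1, whether the difference passed rested on which excitatory genes were used. Against Slc17a7 alone, which fell by 0.46, Fibcd1 differed by 0.041, Mpped1 by 0.119 and Pou3f1 by -0.0021, with exact permutation adjusted p-values of 0.737, 0.548 and 0.985. Man1a kept its difference, 0.20 (0.0361), as did Wfs1, -1.30 (0.000206).

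**Figure D2:**
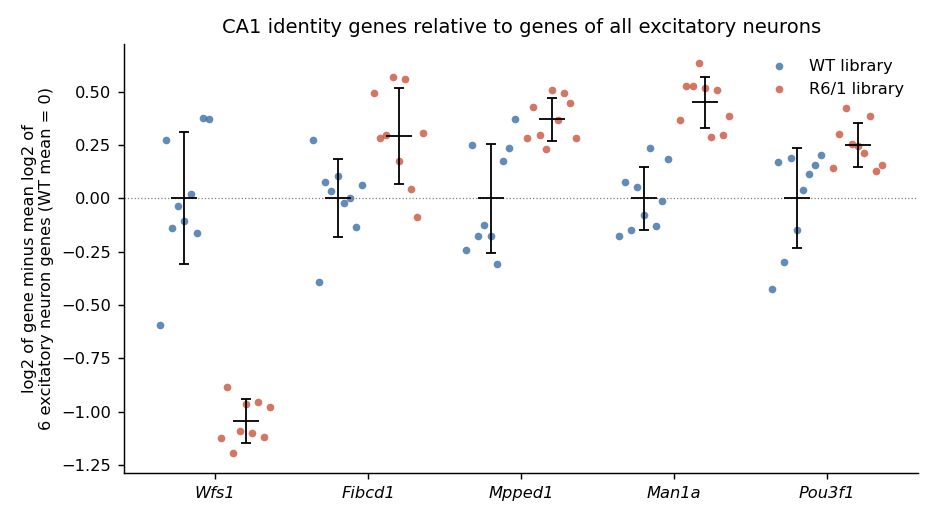
Log2 level of each member minus the mean log2 level of 6 excitatory neuron genes in the same library, with the WT mean of each member set to 0. Points are libraries and bars the mean ± SD. The R6/1 libraries of Wfs1 lie 1.05 below 0 on average, and those of the other members lie 0.25 to 0.45 above it.

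Against 6 genes of dentate granule neurons (Prox1, Dsp, C1ql2, Tdo2, Lct, Trpc6), all of which fell, with a median log2 difference of -1.42, the gap between Wfs1 and its reference was smaller. Wfs1 was 0.33 lower relative to their mean (exact permutation adjusted p = 0.0431). The 4 other members were 0.96 to 1.16 higher relative to it (exact permutation adjusted p = 5.14e-05 each, again resting on the smallest p the design can give). Dsp, Lct and Tdo2 had low R6/1 means, 1.06, 1.25 and 1.63 RPKM, where the added 0.5 RPKM makes a log2 fall smaller. This comparison was not run with another pseudocount.

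The other CA1-enriched genes moved in part with the members. Of the 9 analysed here, 6 fell and 3 did not pass, with a median log2 difference of -0.28 against -0.42 for the 5 members and 0.0036 over all tested genes. Lefty1, a secreted antagonist of Nodal signalling, went from 4.76 ± 1.47 to 0.988 ± 0.438 RPKM with no overlap of the groups, a fall by 1.82. Its WT mean was 4.82 times that of R6/1. It had as few as 14 reads in a library, and its log2 difference ran from -2.23 to -1.52 over the alternatives. Spink8, a serine protease inhibitor, fell by 0.67, Crym, a thyroid hormone binding protein, by 0.49, the zinc finger factor Zbtb20 by 0.46, the LIM-only factor Lmo3 by 0.28 and the ETS factor Etv1 by 0.22. Grp, Nov and Ndst4 did not pass, with log2 differences of -0.10, -0.19 and -0.25 (limma adjusted p of 0.597, 0.0682 and 0.0727). In the authors' deposited table Nov and Ndst4 were called lower (adjusted p of 0.0425 and 0.0298), so that 8 of the 9 passed there, and limma with library weights also called both. Nov and Ndst4 crossed the threshold downward without WT replicate 1, at -0.23 and -0.32, and without WT replicate 5, at -0.24 and -0.28. Nov also did so without R6/1 replicate 7, at -0.22.

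By limma, markers of neighbouring regions fell too, apart from those of the subiculum. Of 6 genes of CA2 pyramidal neurons, 5 had enough signal to be tested and 4 fell, led by Rgs14, a regulator of G-protein signalling, from 42.4 ± 4.53 to 14.2 ± 1.43 RPKM with no overlap. Map3k15 was below the minimum level, with WT and R6/1 means of 0.440 and 0.431 RPKM. Among 4 genes of CA3, 3 fell, including the apoptosis regulator Bok by 1.12 and the deiodinase Iyd by 1.5. The third, the kainate receptor subunit Grik4, had -0.27 (limma adjusted p = 0.0372), a call lost in 15 of 35 alternatives. Among these were leaving out any 1 of WT replicates 1, 3, 4, 5 and 6 or R6/1 replicates 2, 3, 5, 7 and 8 (-0.27 to -0.20) and the subiculum covariate (-0.10). Of 4 genes of neocortical layers, 3 fell, led by Lamp5 by 1.23, and their summed level ran from 26.9 to 47.4 RPKM in WT and from 15.4 to 22.1 RPKM in R6/1. Among 3 subiculum genes Nts, the neuropeptide neurotensin, rose from 3.75 ± 1.30 to 7.09 ± 1.23 RPKM, while Slc17a6 and Fn1 did not pass (log2 differences 0.28 and -0.19). Fn1 passed as lower in 7 of 35 alternatives. Among these were the authors' deposited table (-0.21) and leaving out WT replicate 1 or 4 or R6/1 replicate 5, at -0.24 to -0.22. Wfs1 is also known from neocortical layers, and the part of these markers in the Wfs1 difference was not tested.

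**Figure D3:**
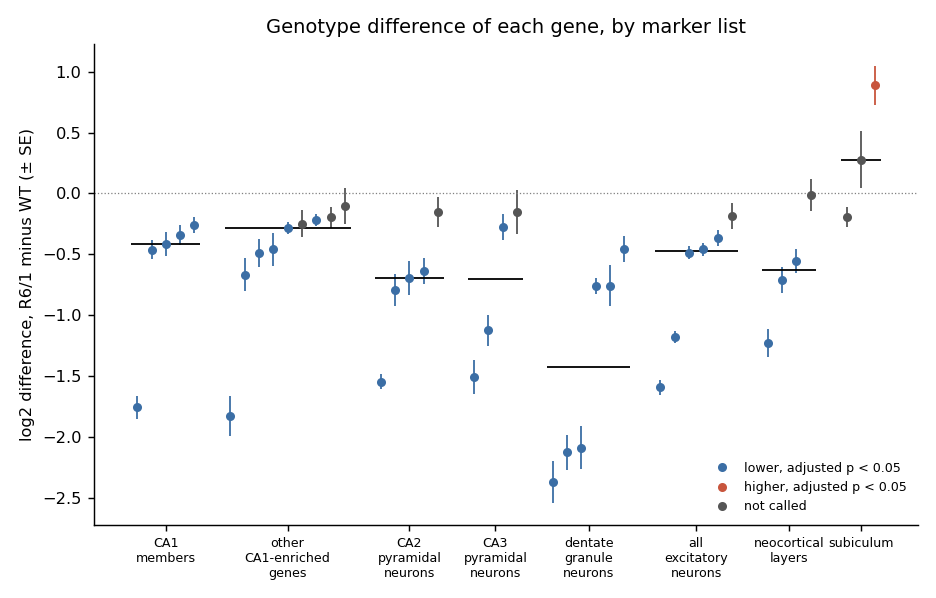
Log2 difference (R6/1 minus WT, ± SE) of each tested gene, grouped by marker list. Colour gives the limma call at an adjusted p under 0.05 and black lines the list medians, from -1.42 for dentate granule neurons to 0.28 for the subiculum list. Wfs1 and Lefty1 are the lowest points of the 2 CA1 lists.

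Lists for other cell types of the tissue give the setting. Of 7 genes of inhibitory neurons 6 fell, with a median log2 difference of -0.36, close to that of the members. The 5 astrocyte genes all fell (median -0.48), as did 4 of 5 oligodendrocyte genes (-0.28) and 3 of 5 microglia genes (-0.40). The microglial call of Aif1, at -0.40 (limma adjusted p = 0.0486), was lost in 21 of 35 alternatives, among them leaving out any 1 of WT replicates 1, 2, 3, 5, 7, 8 and 9 or R6/1 replicates 1, 2, 6, 7, 8 and 9 (-0.42 to -0.33). Among the oligodendrocyte genes, the call of Mag was lost in 5 of 35 alternatives. These included scaling by library totals (-0.20) and leaving out R6/1 replicate 3 (-0.23). Cnp passed as lower in 7 of 35, among them without WT replicate 8 or R6/1 replicate 1, 2 or 5 (-0.20 to -0.18). The 3 genes of oligodendrocyte precursors, the 3 of endothelium and the 5 of choroid plexus did not pass, with medians of -0.10, -0.14 and 0.23. In these 3 lists 0 genes had an unadjusted limma p under 0.05, and 0 were called by limma-voom or in the authors' deposited table. Without WT replicate 1, the endothelial genes Flt1 (-0.25) and Pecam1 (-0.20) passed as lower, and without R6/1 replicate 5 Flt1 did (-0.25). Of 6 activity-regulated genes 5 fell (median -0.67), led by Arc, an effector of synaptic plasticity, by 1.52. The call of Egr1, at -0.41 (limma adjusted p = 0.0411), was lost in 16 of 35 alternatives, among them leaving out any 1 of WT replicates 2, 5, 7 and 8 or R6/1 replicates 3, 4, 5, 6, 8 and 9 (-0.42 to -0.33), and Fos passed as lower without WT replicate 4 (-0.95). With the choroid plexus level as a covariate the member differences were close to those without it, from -1.73 for Wfs1 to -0.26 for Man1a.

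Close relatives of the members, listed together with Cisd2, which is tied to Wfs1 by disease, had log2 differences between -0.31 and 0.22. Of 8 listed, 4 fell, 1 rose and 3 did not pass, with a median log2 difference of -0.23. Mpped2, the paralog of Mpped1, fell by 0.27 from 12.5 ± 1.19 to 10.3 ± 0.996 RPKM. Of the other class III POU factors, Pou3f3, at 28 ± 1.78 RPKM more abundant in WT than Pou3f1, fell by 0.24 and Pou3f2 by 0.31, while Pou3f4 had 1.82 and 1.5 RPKM and did not pass (limma adjusted p = 0.0876), though it did without WT replicate 3 or without R6/1 replicate 5, each at -0.26. Among the mannosidases related to Man1a, Man1c1 fell by 0.27, Man1a2 did not pass (-0.05, limma adjusted p = 0.263), and Man1b1, which acts in the endoplasmic reticulum, rose by 0.22 with no overlap of the groups, from 26.0 ± 1.29 to 30.4 ± 1.24 RPKM. Cisd2, whose loss causes a second form of Wolfram syndrome, had 18.6 ± 1.01 and 19.7 ± 0.554 RPKM and a log2 difference of 0.08 (limma adjusted p = 0.0511). It passed as higher in 13 of 35 alternatives.

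Genes of the processes in which Wfs1 and Man1a act showed no common direction. Of 9 genes of endoplasmic reticulum stress and folding, 3 fell, 1 rose and 5 did not pass (median 0.05). The stress-induced factor Ddit3 fell by 0.36 and the stress sensor Atf6 by 0.32, and Herpud1, which takes part in the degradation of misfolded proteins, rose by 0.40, each with no overlap of the groups. The chaperone Hsp90b1 fell by 0.18 (limma adjusted p = 0.0318), a call lost in 9 of 35 alternatives. These included scaling by library totals (-0.11). They also included leaving out any 1 of WT replicates 3 and 7 or R6/1 replicates 6, 7 and 9, where the difference was -0.17 to -0.16. Without WT replicate 1, the number that rose went from 1 to 3 of the 9 as Hspa5 (0.33) and Xbp1 (0.29) passed, and Xbp1 also passed without R6/1 replicate 3 or 7, each at 0.24. Over all alternatives between 1 and 4 of the 9 rose. Of 9 genes of N-glycan trimming besides Man1a, 2 fell and 3 rose (median 0.05). These 9 include Man1a2, Man1c1 and Man1b1, already counted among the relatives. The Golgi mannosidase Man2a1 fell by 0.26, and Mgat1, which adds the N-acetylglucosamine that follows mannosidase trimming, rose by 0.25.

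With 9 libraries per genotype, correlations could not settle whether the members vary as 1 block between libraries. Pearson correlations of log2 levels were taken within each genotype, with 9 libraries each, for the 10 pairs. None of the 20 passed adjustment in exact permutation tests (lowest adjusted p = 0.201 for Pearson's r and 0.121 for Spearman's rho). The highest was Wfs1 with Pou3f1 in WT (r = 0.797, rho = 0.85, r = 0.663 without the 2 libraries farthest from the median of Wfs1). In the same WT libraries Wfs1 and Fibcd1 had r = -0.633 and rho = -0.6, and r = -0.360 without the 2 farthest libraries. WT replicate 1 had the lowest Wfs1 and Pou3f1 of its genotype and the highest Fibcd1. Man1a and Pou3f1 had r = 0.682 in both genotypes.

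Because the libraries differed in markers of adjoining tissue, 30 correlations of the members with the mean log2 levels of the choroid plexus, subiculum and neocortical lists were computed within genotypes, a choice made after seeing the data. Fibcd1 against the subiculum list in WT was the 1 that passed adjustment by Pearson's r in exact permutation tests (r = -0.937, adjusted p = 0.014, and r = -0.858 without the 2 farthest libraries). Its rank correlation did not pass (rho = -0.783, adjusted p = 0.103), and in R6/1 r was -0.536 (adjusted p = 0.334). Against the choroid plexus list in WT, Mpped1 had r = -0.852, Pou3f1 -0.834, Wfs1 -0.661, Man1a -0.287 and Fibcd1 0.499, and none passed adjustment. In R6/1 these values ran from -0.460 for Wfs1 to 0.541 for Pou3f1. Against the neocortical list in WT, Wfs1 had r = 0.727, Mpped1 0.802 and Pou3f1 0.741, and Fibcd1 had -0.794, none of which passed adjustment. Fibcd1 had the opposite sign to the 4 other members against the neocortical list in WT, Man1a having 0.282. This did not hold in R6/1, where Fibcd1 had r = -0.770, Pou3f1 -0.463 and Man1a -0.193. Wfs1 had 0.504 and Mpped1 0.451 there, and none of these R6/1 values passed adjustment.

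**Figure D4:**
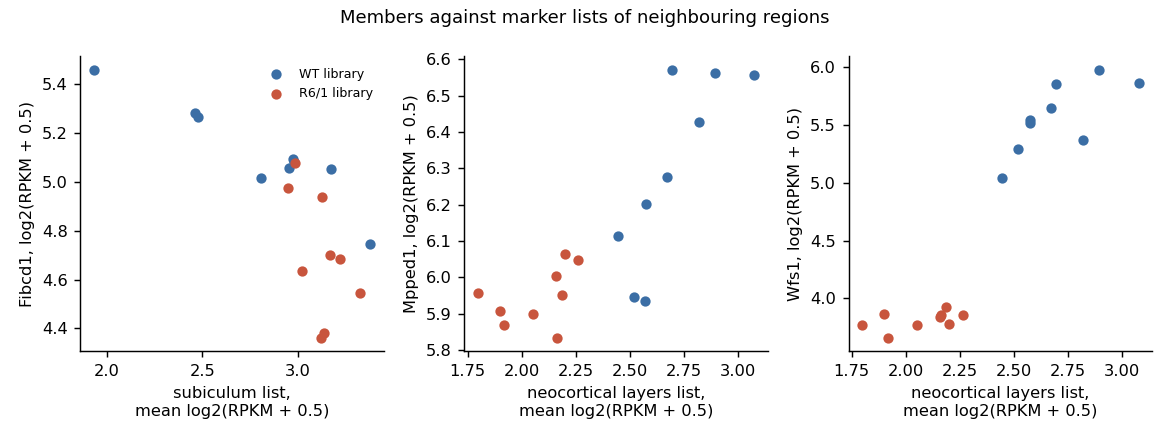
Log2 level of Fibcd1 against the mean log2 level of the subiculum list, and of Mpped1 and Wfs1 against that of the neocortical list, per library. In WT the correlations are -0.937, 0.802 and 0.727. The genotypes do not overlap in Wfs1 or in the neocortical list, so they cannot be compared at a shared level of that list.

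The genes whose levels followed the members most closely were ranked by the smaller of the WT and R6/1 correlations, as a description over 9 libraries of each genotype. For the mean of the 5 members they were Gad1 (0.711 in WT and 0.739 in R6/1), Ube2t, Apol8, Klhl40 and Slc26a10. These values are modest, and Gad1 is a marker of inhibitory neurons. For single members the 2 closest genes were Ercc4 and Klhl32 for Wfs1, Gm12260 and Mir684-2 for Man1a, and Eif1ad and Ccnh for Pou3f1. The smaller r of these genes was between 0.741 and 0.775. Gm12260 and Ube2t had low WT means, 0.334 and 0.734 RPKM, and the lowest WT level of Gm12260 was 0. The closest likeness was that of Dgkg (0.95 and 0.909) and Sp9 (0.908 and 0.923) to Fibcd1. Mpped1 was followed by Satb1 (0.948 and 0.844) and Phactr1 (0.870 and 0.832). Dgkg, a diacylglycerol kinase, did not pass the test between genotypes, with 57.5 ± 10.1 and 55.8 ± 5.73 RPKM (limma adjusted p = 0.804), and Sp9 rose by 0.52.

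Lamin B1 domains are broad stretches of chromatin at the nuclear lamina, where few genes are active. Of the 5 members only Man1a started within one. The share of all genes that start in such a domain, or leave one in R6/1, was not counted. The start of Man1a lay in a WT domain on chromosome 10 from 44881001 to 57572000, 12.7 Mb long, 3776 kb from the nearer border. In R6/1, 2 domains covered 9.32 Mb (73.5%) of that stretch, and the gap between them, after 51911000 and before 54020001, held the whole of Man1a, 224 kb from the nearer R6/1 border. The other 4 genes lay in no domain of either genotype. The nearest border was 1914 kb from the start of Wfs1 in WT and 1618 kb in R6/1, and 4410 kb from Fibcd1 in both. It was over 10 Mb away from Mpped1 and Pou3f1. With 1 list per genotype these positions have no test. Man1a, within a WT domain and within no R6/1 domain, was the member with the smallest fall, and any link was not tested.

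**Figure D5:**
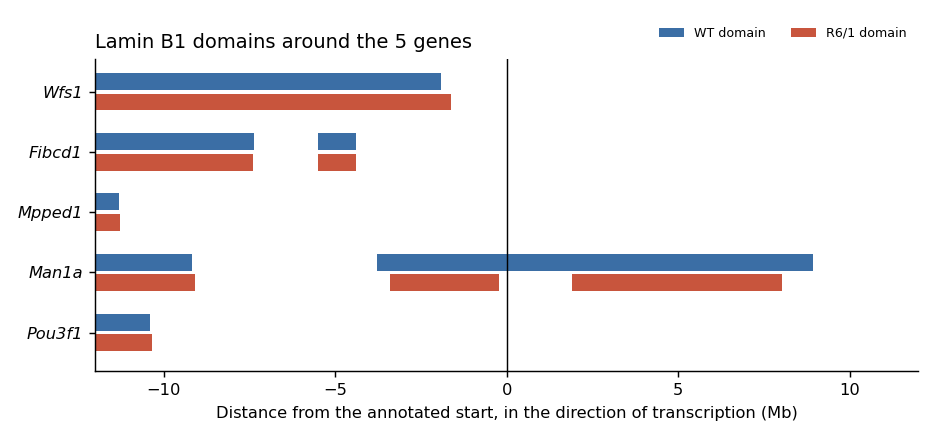
Lamin B1 domains of WT and R6/1 within 12 Mb of the start of each member, by distance in the direction of transcription (Mb). The WT domain over the start of Man1a is 12.7 Mb long, and its R6/1 counterpart is split in 2 around the gene. No domain covers the start of the other 4 genes.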

How the data were processed

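RNA libraries were made with a stranded messenger RNA kit from hippocampus, per the labels' protocols. The authors deposited RPKM per gene. The submitters' processing notes name mm9, TopHat, DESeq2 and Bowtie. Versions, counter and annotation are not given in the sources used here. The authors' deposited table holds a mean normalized count (signal), log2 fold change, test score, p-value and adjusted p-value per gene. Multiplied by mean normalized count over mean RPKM, 99.87% to 99.91% of deposited RPKM values were whole read steps within 0.05, which gave back the reads. The deposited domain lists carry 1 score per domain, unused here, and their ends fit NCBIM37 (mm9), annotated with GENCODE vM1.

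Genes averaging 0.5 RPKM or more were tested with limma 3.58.1 (R 4.3.3; lmFit, eBayes with trend) on log2(RPKM + 0.5), two-sided, with Benjamini-Hochberg adjustment. Exact permutation tests used Python 3.11.15. The script was tested on simulated data. Members and lists were chosen with earlier results of these data known. 1 listed gene is not reported here. Named are the members, any gene of the lists, and the genes most like the members (5 for their mean, 2 for each). Alternatives were pseudocounts, filters, scalings, covariates (Xist, choroid plexus), the replicate block, single libraries left out, limma-voom on recovered reads and the authors' table. The subiculum covariate was added after seeing the data.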

Additional observations from a re-analysis of the deposited data

Results flagged for a closer look

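Man1a in R6/1 replicate 4, at 15.3 RPKM, stood apart from the other R6/1 libraries, of which the next highest had 13.1 RPKM. The gap was 0.516 of the range of the 9 libraries, above Dixon's critical value. Of 10 groups examined (5 genes in 2 genotypes) 1 was marked in this way, where chance gives about 0.5. The same library also had the highest Fibcd1 of its genotype, 33.2 RPKM, and the second highest Pou3f1, 12.9 RPKM. Without any 1 library, this one included, Man1a stayed lower in R6/1 by limma.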

How the results depend on the processing

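Each member stayed lower in R6/1 and past its threshold under all 35 alternatives run, with log2 differences of -1.87 to -1.68 for Wfs1, -0.46 to -0.26 for Fibcd1, -0.39 to -0.27 for Mpped1, -0.30 to -0.19 for Man1a and -0.53 to -0.39 for Pou3f1. When reads were scaled by library totals, 2526 genes were lower and 5104 higher, so the share of calls that were lower went from 48.6% to 33.1%, and the median of all genes moved from 0.0036 to 0.07. Relative to Slc17a7 alone in place of the 6 excitatory genes, the differences of Fibcd1 (0.0411) and Mpped1 (0.119) no longer passed and that of Pou3f1 (-0.0021) changed sign; by construction the reference was 1 gene. Same-numbered WT and R6/1 libraries did not all deviate together (correlations -0.053 to 0.237, with replicates 1 and 3 closest to their own number), so the numbers were not taken to pair the libraries; with a replicate block all 5 members were still called (Wfs1 limma adjusted p = 2.53e-08, Fibcd1 0.000331, Man1a 0.00342). Of 118 named genes with a fit, 96 kept their call, or stayed uncalled, under every alternative. A gene that stayed uncalled could change sign, as Slc17a6 did (-0.22 to 0.44). The other 22, none of them a member, lost or gained a call under at least 1. Depth did not limit the members, with 493 reads or more per library. The domain positions rest on 1 list per genotype.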
